A study of Bos taurus with 12 samples.

Results

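Glutathione peroxidases, superoxide dismutases and catalase are the core enzymes that remove superoxide, hydrogen peroxide and lipid hydroperoxides. The 10 genes GPX1, GPX2, GPX3, GPX4, GPX7, GPX8, SOD1, SOD2, SOD3 and CAT were taken by name, and all 10 were found by Entrez ID among the 30336 genes of the liver count files. Liver RNA was sequenced from Holstein heifer calves at 4 d of age, and the labels list 12 libraries. By the labels, 6 libraries were from calves whose dams received a basal close-up diet with no added methionine (CON) for the last 28 d before calving, and 6 from calves whose dams received the same diet plus methionine protected from the rumen by ethyl cellulose (MET). MET thus names the diet of the dam. By the labels the calves were fed and managed alike after birth, although by the study's methods each first received colostrum from its own dam. The comparison asks which liver transcripts differed between calves of the dams on these diets.

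Superoxide dismutases turn superoxide into hydrogen peroxide, which catalase and the glutathione peroxidases then reduce to water. SOD1 uses copper and zinc in the cytosol, SOD2 uses manganese in mitochondria, and SOD3 is the secreted copper and zinc form. Catalase is a heme enzyme of peroxisomes, which are numerous in hepatocytes, and it uses no co-substrate besides hydrogen peroxide. Glutathione peroxidases take their electrons mainly from glutathione. GPX1 to GPX4 carry selenocysteine at the active site, whereas GPX7 and GPX8 are endoplasmic reticulum proteins that carry cysteine instead. Methionine enters this system because it can be converted to cysteine, one of the amino acids of glutathione.

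The 12 libraries held 8277789 to 10397604 counted reads, and 3 reads in a library correspond to 0.289 to 0.362 CPM, the read count scaled to the size of its library. The reads of CON replicates 1 and 4 were almost as alike as repeat draws from 1 library (chi-square per gene of 1.31), as were those of MET replicates 1 and 3 (1.23), whereas the next most alike libraries gave 23.3. Both pairs were therefore treated as 1 sample each, which leaves 5 samples per diet for means and SD, a pair entering as its average CPM. Each test was run on the 12 libraries and again on these 10 samples after adding up the reads within a pair. The first index sequence of every library followed the diet, so that effects of the index cannot be told apart from those of the diet. The 8 hepatocyte markers examined, albumin among them, summed to between 74074 and 126257 CPM in the 10 samples.

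CAT was lower in livers of MET calves and GPX1, the abundant cytosolic and mitochondrial glutathione peroxidase, was greater. CAT averaged 1936 ± 326 CPM in CON and 1103 ± 103 CPM in MET (SD, n = 5 samples each). GPX1 averaged 108 ± 19.7 CPM in CON and 170 ± 33.1 CPM in MET (SD, n = 5 each). In edgeR's quasi-likelihood test, CAT and GPX1 passed the cutoff of FDR ≤ 0.10 over the 12 libraries but not over the 10 samples. No other member passed in either. FDR is the Benjamini-Hochberg adjusted p over all genes tested. In a whole liver sample, fewer cells of a type and less RNA per cell cannot be told apart.

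Over the 12 libraries, 1 of the 9 tested members was upregulated in MET and 1 was downregulated at FDR ≤ 0.10 in edgeR's quasi-likelihood test. The same cutoff called 2.09% of the 13212 tested genes as higher and 2.32% as lower. The median log2 fold change was −0.01 for the 9 members and −0.0031 for all tested genes. Over the 10 samples none of the members, and 0.0% of the 13242 genes tested, had FDR ≤ 0.10 by the same test, and the lowest FDR of any gene was 0.156. In that fit of 10 samples, 2165 genes had an unadjusted p no greater than 0.05, and among the members GPX1 was the only one higher and CAT the only one lower. That cutoff took in 7.83% of all genes as higher and 8.52% as lower. DESeq2 on the same 10 samples, an alternative added after the data were seen, also called GPX1 as higher and CAT as lower at FDR ≤ 0.10, against 2.74% and 2.98% of its 11187 genes with an adjusted p. Both genes are on the study's list of differentially expressed genes from these same libraries, so their calls here are not independent evidence. The study also measured GPX1 by quantitative PCR in calf liver, where its greater mean in MET was not significant.

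**Figure D1:**
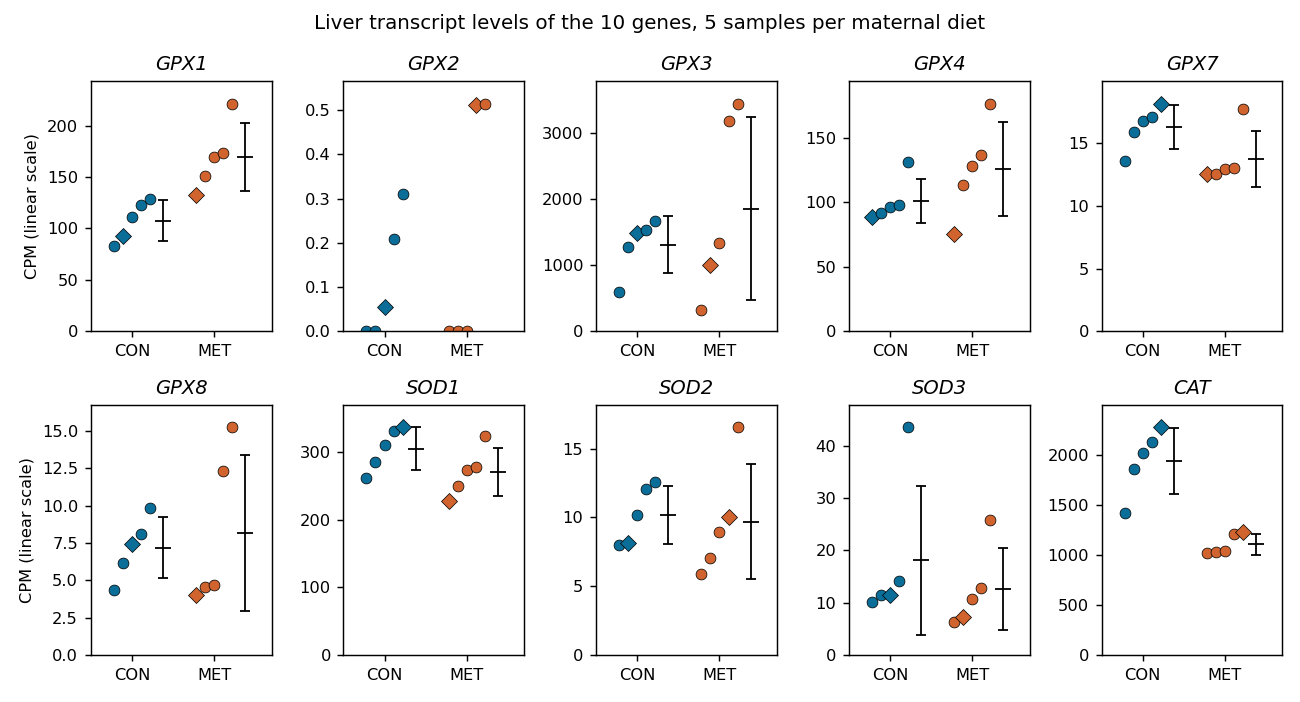
CPM of each of the 10 genes (linear axis, own scale per panel) in 5 CON and 5 MET samples, with circles for single libraries, diamonds for the mean of a near-identical library pair, and bars for the mean ± SD (not drawn for GPX2). All 5 MET samples lie below all CON samples for CAT and above them for GPX1, and the diets overlap in the other 8 panels.

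CAT lies on chromosome 15 at 65779325 to 65815272 on the plus strand of UMD 3.1.1, the build of the count files, where its 13 exons total 2273 bases. The CON samples held 2271 CPM (mean of replicates 1 and 4), 2121 CPM (replicate 2), 1418 CPM (replicate 3), 2013 CPM (replicate 5) and 1857 CPM (replicate 6). The MET samples held 1226 CPM (mean of replicates 1 and 3), 1205 CPM (replicate 2), 1035 CPM (replicate 4), 1018 CPM (replicate 5) and 1030.3 CPM (replicate 6). The diets did not overlap, and the MET samples lay within 1.20-fold of each other whereas the CON samples spanned 1.60-fold, CON replicate 3 being the lowest.

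Between the diets, the log2 fold change of CAT was −0.83 (standard error 0.13), 1.77-fold lower in MET, with FDR = 0.0398 over the 12 libraries in edgeR's quasi-likelihood test. Its unadjusted p was the 8th lowest of the 13212 tested genes. Over the 10 samples the log2 fold change was −0.81 (standard error 0.16) with FDR = 0.156 by the same test, and DESeq2 gave FDR = 8.3e-05. With any 1 of the 12 libraries left out, CAT kept a log2 fold change of −0.91 to −0.78 and FDR ≤ 0.10 in 12 of 12 fits. Between 9006 and 20817 reads per library were counted for CAT, the most of any member in some libraries and fewer than GPX3 in others.

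GPX1 is on chromosome 22 at 51325106 to 51326274 (plus strand), with 2 exons of 908 bases in all. Of these bases, 166 overlap an exon of an unnamed gene on the other strand (Entrez ID 107131694), and reads were counted by strand. CON samples had 92.2 CPM (replicates 1 and 4), 111 CPM (replicate 2), 123 CPM (replicate 3), 129 CPM (replicate 5) and 82.5 CPM (replicate 6). MET samples had 133 CPM (replicates 1 and 3), 151 CPM (replicate 2), 169 CPM (replicate 4), 173 CPM (replicate 5) and 221 CPM (replicate 6). Every MET sample was above every CON sample, although the gap between the highest CON and the lowest MET sample was narrow.

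For GPX1 the log2 fold change was 0.64 (standard error 0.15), 1.56-fold greater in MET, with FDR = 0.0684 over the 12 libraries in edgeR's quasi-likelihood test. Over the 10 samples it was 0.66 (standard error 0.17) with FDR = 0.175 by the same test, and FDR = 0.0194 by DESeq2. The call ended without CON replicate 1 (FDR = 0.124), CON replicate 4 (FDR = 0.133) or MET replicate 6 (FDR = 0.103) in edgeR's test, with log2 fold changes of 0.61, 0.60 and 0.53. It also ended when a trend on exonic length was removed (0.47, FDR = 0.116 in edgeR's test), whereas CAT stayed at −0.85 with FDR = 0.0277. This trend was a smooth fit within each library, across the tested genes, of log2 CPM minus the gene's mean over the libraries.

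Of the 9 tested members, 1 was fully above and 1 fully below the CON samples in all 5 MET samples, against 1.94% and 1.77% of all genes tested. With CAT below and GPX1 above the CON samples in every MET sample, their ratio could not overlap between the diets, and it is given as a description. Per kilobase of exon, the CPM of CAT was 4.61 to 9.83 times that of GPX1 in the CON samples (median 7.62) and 1.86 to 3.69 times in the MET samples (median 2.44). The lowest ratio, 1.86, was that of MET replicate 6, which held the most GPX1. Among the CON samples, replicate 3 came nearest to MET with a ratio of 4.61.

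**Figure D2:**
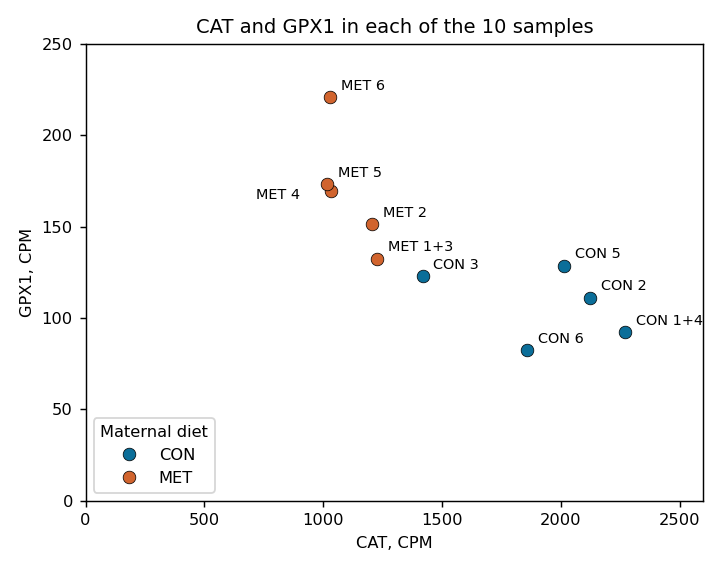
CPM of GPX1 against CPM of CAT in the 10 samples, labelled by diet and replicate, on linear axes that start at 0. The 5 MET samples are at 1018 to 1226 CPM of CAT and 133 to 221 CPM of GPX1, apart from the CON samples at 1418 to 2271 and 82.5 to 129 CPM.

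The summed markers of Kupffer cells, the resident liver macrophages, did not overlap between the diets either, and their part in the CAT and GPX1 differences was not tested. All 10 of these markers had a positive log2 fold change, 3 of them (CD14, C1QB and C1QC) passed FDR ≤ 0.10 over the 12 libraries, and none was at 0. With 1 library left out, these calls held in 6, 2 and 10 of 12 fits, and those of C1QB and C1QC ended with scaling by library size only and with the length trend removed, where C1QC was at 0.28 (FDR = 0.147). The sum of the 10 markers was 1595 to 2090 CPM in CON and 2145 to 2510 CPM in MET. The 8 hepatocyte markers gave 93715 to 126257 CPM in CON and 74074 to 111092 CPM in MET, with negative log2 fold changes in 6 of 8 and a median of −0.30. Of these, ALB (albumin) was at −0.65 (FDR = 0.107), and only the gluconeogenic gene PCK1 was lower at FDR ≤ 0.10, a call that ended without CON replicate 1 or 4 and with scaling by library size only. Erythroid cells also make catalase and GPX1. The 12 erythroid genes examined overlapped between the diets and summed to 20.5 to 1104 CPM in CON and 79.0 to 602 CPM in MET. The 4 of them abundant enough to test did not pass, 2 with a positive and 2 with a negative log2 fold change. TFRC came nearest, at 24.6 ± 10.0 CPM in CON and 10.0 ± 4.61 CPM in MET (log2 fold change −1.12, FDR = 0.102 over the 12 libraries in edgeR's test).

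GPX3, the secreted glutathione peroxidase of plasma, had the widest spread of the abundant members. Its gene is on chromosome 7 at 64286948 to 64295117 (plus strand), with 5 exons of 1571 bases. CON samples held 1494 CPM (replicates 1 and 4), 1664 CPM (replicate 2), 1272 CPM (replicate 3), 587 CPM (replicate 5) and 1528 CPM (replicate 6). MET samples held 1006 CPM (replicates 1 and 3), 322 CPM (replicate 2), 3179 CPM (replicate 4), 3442 CPM (replicate 5) and 1328 CPM (replicate 6). The lowest and the highest samples were both MET, a 10.7-fold range, against 2.84-fold within CON.

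GPX3 gave a log2 fold change of 0.36 (standard error 0.45, FDR = 0.694 over the 12 libraries in edgeR's quasi-likelihood test). The standard error exceeded the estimate. The log2 fold change fell to 0.085 without MET replicate 4 and to 0.031 without MET replicate 5, where FDR was 0.944 and 0.980. MET replicates 4 and 5, high in GPX3, also held the most SLC39A14, a zinc and manganese importer named here after its values were seen, with 1591 and 1458 CPM against 591 to 898 CPM in the other samples. The other genes of the copper and manganese list summed to 604 and 551 CPM in these replicates, within the 469 to 631 CPM of the remaining samples. The same replicates held the least SELENOP, 2206 and 2925 CPM against 3241 to 5147 CPM.

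GPX4, which reduces lipid hydroperoxides within membranes, is on chromosome 7 at 45205077 to 45207498 (plus strand), with 7 exons of 896 bases. CON samples held 88.2 CPM (replicates 1 and 4), 131 CPM (replicate 2), 96.0 CPM (replicate 3), 98.0 CPM (replicate 5) and 91.4 CPM (replicate 6). MET samples held 75.1 CPM (replicates 1 and 3), 128 CPM (replicate 2), 136 CPM (replicate 4), 113 CPM (replicate 5) and 176 CPM (replicate 6). The diets overlapped, with the lowest and the highest sample both in MET, and the log2 fold change was 0.25 (standard error 0.20, FDR = 0.505 in edgeR's test). It was 0.077 with the trend on exonic length removed and 0.091 without MET replicate 6.

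The endoplasmic reticulum peroxidases were at low levels. GPX7 (chromosome 3, 94323976 to 94331673, minus strand, 3 exons of 1229 bases) held 18.2, 13.6, 16.8, 15.9 and 17.1 CPM in CON samples 1 and 4, 2, 3, 5 and 6. The MET samples 1 and 3, 2, 4, 5 and 6 held 12.5, 13.1, 12.5, 13.0 and 17.7 CPM. Of the 5 MET samples, 4 were below every CON sample, and replicate 6 was above all but the highest. The log2 fold change of −0.29 (standard error 0.12) did not pass the cutoff over the 12 libraries (FDR = 0.186 in edgeR's test).

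GPX8 (chromosome 20, 23975637 to 23980470, minus strand, 3 exons of 1113 bases) was at 7.43, 6.15, 9.82, 4.37 and 8.08 CPM in the CON samples and at 4.02, 4.58, 12.3, 4.69 and 15.2 CPM in the MET samples, in the same order. MET replicates 4 and 6 were above all CON samples and the other 3 MET samples near the lowest of them. With 37 to 148 reads per library, the log2 fold change was 0.05 (standard error 0.35, FDR = 0.961 in edgeR's test), and its sign turned under 4 alternatives and without any 1 of 3 libraries.

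GPX2, best known from the gut epithelium, was at the limit of detection. The 3 reads taken as the floor were exceeded only in MET replicates 1, 3 and 6, with 7, 4 and 5 reads. MET replicates 1 and 3 are the near-identical pair counted as 1 sample. CON replicates 1, 5 and 6 held 1, 2 and 3 reads, and the other 6 libraries held none. With 6 reads in the CON libraries and 16 in the MET libraries in all, GPX2 fell below the filter on low counts and was not tested. Its gene is on chromosome 10 at 77381300 to 77384791 (minus strand), with 2 exons of 927 bases.

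SOD1, the cytosolic copper and zinc enzyme, was the most abundant dismutase and, with GPX7, varied least within CON. It lies on chromosome 1 at 3113948 to 3122613 (minus strand), with 5 exons of 857 bases. CON samples held 336 CPM (replicates 1 and 4), 331 CPM (replicate 2), 285 CPM (replicate 3), 310.3 CPM (replicate 5) and 262 CPM (replicate 6). MET samples held 228 CPM (replicates 1 and 3), 323 CPM (replicate 2), 273 CPM (replicate 4), 249 CPM (replicate 5) and 278 CPM (replicate 6). Of the MET samples, 2 were below every CON sample and none above.

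The log2 fold change of SOD1 was −0.24 (standard error 0.12), and edgeR's quasi-likelihood test gave FDR = 0.271 over the 12 libraries and FDR = 0.537 over the 10 samples. Its coefficient of variation was 10.3% in CON and 13.3% in MET. With the trend on exonic length removed, short genes such as SOD1 shifted down, and SOD1 was at −0.40 (FDR = 0.107 in edgeR's test).

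SOD2, the mitochondrial dismutase, is annotated on chromosome 9 at 97399159 to 97404521 (plus strand) with 3 exons of only 412 bases, less than the coding sequence of the enzyme, so its level is that of these exons. CON samples 1 and 4, 2, 3, 5 and 6 held 8.15, 10.2, 12.6, 12.1 and 7.97 CPM. MET samples 1 and 3, 2, 4, 5 and 6 held 10.1, 8.97, 16.5, 7.04 and 5.87 CPM. The MET samples lay on both sides of the CON range. The log2 fold change was −0.015 (standard error 0.22, FDR = 0.980 in edgeR's test), and its sign turned when libraries were scaled by size alone.

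SOD3, the secreted dismutase, is on chromosome 6 at 45909831 to 45930828 (plus strand), with 4 exons of 1968 bases. CON samples held 11.4, 43.5, 14.2, 10.2 and 11.4 CPM, and MET samples 7.20, 6.33, 12.9, 10.7 and 25.8 CPM, in the order given for SOD2. CON replicate 2 and MET replicate 6 stood above the other samples of their diet. CON replicate 2 also held the most RNA of the erythroid genes, 1104 CPM, whereas MET replicate 6 was at 175 CPM.

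Single libraries decided the size of the SOD3 difference. The log2 fold change was −0.54 (standard error 0.42, FDR = 0.497 in edgeR's test) with all libraries, −0.0040 without CON replicate 2 and −0.94 without MET replicate 6, where FDR was 0.996 and 0.224.

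**Figure D3:**
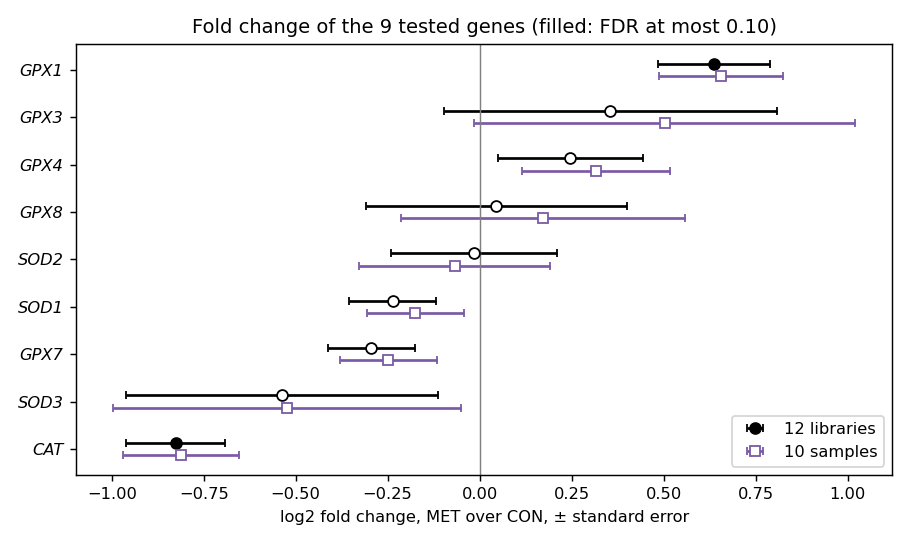
Log2 fold change (MET over CON) ± standard error of the 9 tested genes in edgeR's quasi-likelihood fit, over the 12 libraries (circles) and over the 10 samples (squares), filled where FDR was at most 0.10. GPX1 at 0.64 and CAT at −0.83 over the 12 libraries are the only filled points.

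By family, the tested selenocysteine enzymes GPX1, GPX3 and GPX4 had log2 fold changes of 0.25 to 0.64 over the 12 libraries, and 1 of 3 passed the cutoff. No alternative turned their sign, but GPX3 fell to 0.0074 with the replicate block and to 0.035 with limma voom. The 3 dismutases were at −0.54 to −0.015, apart from the turn of sign of SOD2, and none passed. The cysteine enzymes GPX7 and GPX8 were at −0.29 and 0.05, and neither passed.

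On the scale of CPM per kilobase of exon, averaged over the 10 samples, the order of levels was GPX3 (1007), CAT (668), SOD1 (335), GPX1 (153), GPX4 (126), SOD2 (24.1), GPX7 (12.2), SOD3 (7.81), GPX8 (6.89) and GPX2 (0.173). The first 5 were among the most expressed genes of the calf liver, with ranks 72, 99, 219, 462 and 550 among the 21227 genes with a read. GPX3 and CAT were not separated, since GPX3 was the higher in 7 of 10 samples, and the order of their means differed by diet: CAT and GPX3 averaged 852 and 833 in CON but 485 and 1181 in MET. SOD3 and GPX8 were not separated either, SOD3 being the higher in 4 of 10, with means of 9.22 and 6.44 in CON and of 6.40 and 7.33 in MET. GPX1 exceeded GPX4 in 3 of 5 CON samples and 5 of 5 MET samples. CAT was above SOD1, SOD1 above GPX1 and GPX4 above SOD2 in 10 of 10 samples.

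**Figure D4:**
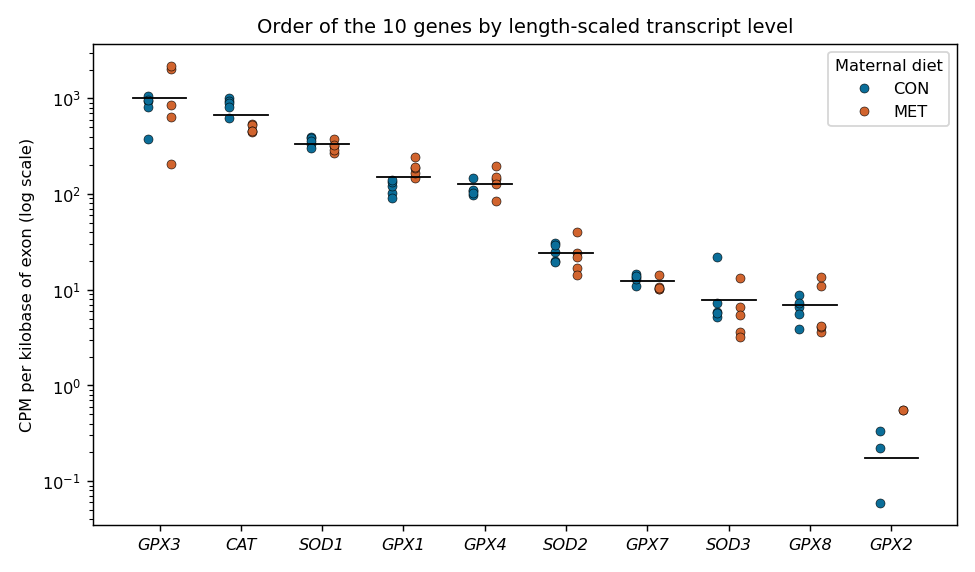
CPM per kilobase of exon (log axis) of the 10 genes in order of their mean over the 10 samples (black bar), with a point per CON and MET sample. GPX3, CAT, SOD1, GPX1 and GPX4 average 1007 to 126 CPM per kilobase, GPX2 is the lowest at 0.173, and the 5 samples with no GPX2 read are not drawn.

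As a share of the summed level of the 10 genes, CAT made up 30.2 to 46.0% in the CON samples and 13.6 to 36.3% in the MET samples. GPX1 made up 3.89 to 7.37% in CON and 5.81 to 11.5% in MET, and GPX3 19.4 to 41.7% and 14.0 to 66.7%. All 3 shares overlapped between the diets, and GPX3 took the largest share in MET replicates 4 and 5, where CAT had its smallest.

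Genes that form hydrogen peroxide were examined beside those that remove it. Of 13 peroxisomal and other oxidases, 12 had a negative log2 fold change, with a median of −0.28. The oxidases summed to 2016 to 2590 CPM in CON and 1318 to 2096 CPM in MET, so the diets overlapped.

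The phagocyte NADPH oxidase, which makes superoxide, had positive log2 fold changes in 6 of its 7 tested genes, with a median log2 fold change of 0.38. The exception was CYBB, the catalytic subunit, at 12.6 ± 3.34 CPM in CON and 11.4 ± 2.44 CPM in MET (log2 fold change −0.17, FDR = 0.631 over the 12 libraries). CYBA, its membrane subunit p22phox, was at 17.4 ± 1.49 CPM in CON and 25.3 ± 1.54 CPM in MET (SD, n = 5 each), and RAC2, its small GTPase, at 11.7 ± 2.11 and 17.9 ± 1.95 CPM. Over the 12 libraries both passed, with log2 fold changes of 0.50 (FDR = 0.0398) and 0.57 (FDR = 0.0582) in edgeR's test. Neither passed with the trend on exonic length removed (0.31, FDR = 0.128 for CYBA and 0.49, FDR = 0.102 for RAC2), and RAC2 also lost the call without CON replicate 1 or CON replicate 4. CYBA and RAC2 are expressed in macrophages and other leukocytes, and a link to the greater Kupffer cell marker levels given above was not tested.

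Peroxisomal matrix import, by which catalase reaches the peroxisome, had a median log2 fold change of −0.01 over its 9 genes, 4 of them positive and 5 negative. PEX5, the import receptor for proteins such as catalase, was at 50.8 ± 8.35 CPM in CON and 47.2 ± 7.90 CPM in MET (SD, n = 5 samples each) and was not called.

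Glutathione supply and recycling had 1 of 10 genes called, none higher. GCLM, the modifier subunit of the first enzyme of glutathione synthesis, was at 49.0 ± 6.22 CPM in CON and 36.8 ± 3.93 CPM in MET (SD, n = 5 each). Its log2 fold change was −0.41, with FDR = 0.0719 over the 12 libraries and 0.177 over the 10 samples in edgeR's test. Glutathione reductase, GSR, had a log2 fold change of 0.03 (FDR = 0.899), and the median of the 10 genes was −0.05. GCLM kept the call in 4 of 12 fits with 1 library left out and lost it with the length trend removed (FDR = 0.165), with scaling by library size only and with no filter on low counts.

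Selenium supply and selenocysteine insertion had 1 of 9 tested genes called. SELENOP, the secreted selenoprotein that carries selenium from the liver to other tissues, was at 4361 ± 518 CPM in CON and 3061 ± 537 CPM in MET (SD, n = 5 each), lower in every MET sample. Its log2 fold change was −0.50, with FDR = 0.0869 over the 12 libraries and 0.205 over the 10 samples in edgeR's test. This call held in only 1 of 12 fits with 1 library left out (FDR up to 0.162), and it ended with scaling by library size only, with no filter on low counts and with a filter on CPM. The other 8 tested genes, among them the factors that insert selenocysteine into proteins such as GPX1, were not called, and the median of the list was 0.02. 

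Copper and manganese supply had 1 gene higher and 1 lower of 7 tested. ATOX1, a copper chaperone, was at 128 ± 18.3 CPM in CON and 191 ± 30.7 CPM in MET, and SLC31A1, the copper importer CTR1, at 214 ± 23.2 and 160 ± 15.3 CPM (SD, n = 5 each). Their log2 fold changes were 0.54 and −0.41, with FDR = 0.0692 and 0.0707 over the 12 libraries and 0.175 and 0.180 over the 10 samples in edgeR's test. With 1 library left out, ATOX1 kept the call in 6 and SLC31A1 in 5 of 12 fits, and SLC31A1 lost it with the length trend removed (FDR = 0.101), with scaling by library size only and with no filter on low counts. CCS, the copper chaperone of SOD1, was at 47.8 ± 19.2 and 42.5 ± 6.26 CPM and was not called. Of the 11 tested NRF2 regulators and targets and the 6 peroxiredoxins, none passed, with medians of −0.11 and 0.09. By their levels in CON, the most abundant NRF2 genes were HMOX1 (116 ± 30.1 CPM in CON, 131 ± 46.4 CPM in MET) and NFE2L2 (104 ± 11.5 and 86.3 ± 4.46 CPM, lower in every MET sample, FDR = 0.101). The most abundant peroxiredoxins were PRDX3 (118 ± 31.6 and 107 ± 28.6 CPM) and PRDX6 (105 ± 15.8 and 111 ± 17.0 CPM). In the fit of 10 samples, no gene of these lists had FDR ≤ 0.10. PEX5, GSR, CCS, CYBB, ALB and TFRC were named here after their values were seen.

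**Figure D5:**
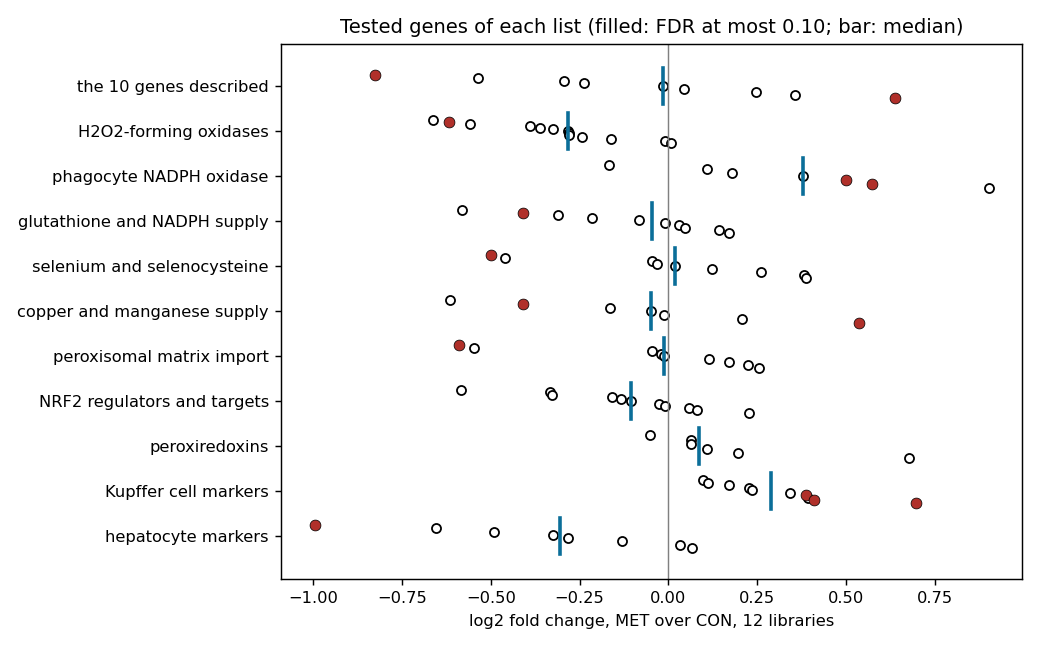
Log2 fold change (MET over CON, 12 libraries, edgeR's quasi-likelihood fit) of the tested genes of the described genes and of 10 lists, 1 point per gene, filled where FDR was at most 0.10, with a vertical bar at each list's median. The oxidases lie mostly left of 0 (median −0.28) and the NADPH oxidase and Kupffer cell lists mostly right of it (medians 0.38 and 0.29).

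The genes whose log2 CPM followed CAT most closely over the 10 samples were FBXO3 (Pearson r = 0.96), ACBD5 (r = 0.95) and UTRN (r = 0.94). For GPX1 they were ALG12 (r = 0.98), ADISSP (r = 0.97) and MPV17 (r = 0.95). These are descriptions over 10 samples that include the difference between the diets, and they were the highest of all tested genes with a symbol. With the mean of each diet removed, r was 0.74 for FBXO3, 0.85 for ACBD5 and 0.71 for UTRN with CAT, and 0.95, 0.94 and 0.87 for ALG12, ADISSP and MPV17 with GPX1. The closest single gene was WDR35 for GPX3 (r = 0.93), PRDX5 for GPX4 (0.95), TCF7 for GPX7 (0.89), MOB1B for GPX8 (0.86), DHRS7 for SOD1 (0.90), VPS29 for SOD2 (0.95) and F13B for SOD3 (0.94).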

How the data were processed

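Calf liver RNA was made into 12 stranded mRNA libraries, sequenced from 1 end on 1 lane. Per the file headers, the deposited values are read counts per gene made with featureCounts 1.5.2, counted by strand over exons of the UMD 3.1.1 RefSeq annotation. Per the labels, reads were aligned with STAR 2.5.3a after trimming, and FastQC 0.11.15 was used. Depth was 8277789 to 10397604 counted reads per library. Floors of 3 reads cover counting error only.

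The members, the gene lists and the tests were chosen with earlier results of these data known. Symbols came from a RefSeq table of a later assembly (ARS-UCD2.0), used for names and to name chromosomes. It matched 25105 of the 30336 genes, all 10 members among them. No sequences were used here.

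Counts were fitted with edgeR 4.0.16 (R 4.3.3) by the quasi-likelihood test with TMM scaling. The filter kept genes with about 10 reads in enough libraries and 15 in all. P-values were adjusted by Benjamini-Hochberg over all tested genes, and the cutoff was FDR ≤ 0.10, as in the study. CPM used TMM-scaled library sizes. Standard errors were the absolute log2 fold change divided by the square root of F. DESeq2 1.42.0 and limma 3.58.1 were used for alternatives, and the tests were checked on simulated data. Means are over 5 samples per diet, in which near-identical library pairs were averaged. The labels give each library as a separate sample, and whether the near-identical pairs came from separate calves was not tested. Whether the same replicate number marks related calves is not given in the labels. Of the lists, each gene called is named, or otherwise up to 2 of its most abundant genes, except that some called genes of the oxidase and peroxisomal import lists are not reported here. For likeness, log2 CPM had a prior count of 2.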

Additional observations from a re-analysis of the deposited data

Results flagged for a closer look

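In 3 of the 18 groups examined (9 genes, 2 diets, 5 samples each, a near-identical pair being 1 sample), 1 sample stood apart from the other 4 by Dixon's criterion, which chance alone gives in about 1 of 20 groups. SOD3 was at 43.5 CPM in CON replicate 2, against 10.2 to 14.2 CPM in the other CON samples, and it decided the size of the SOD3 difference. GPX4 was at 131 CPM in the same sample, against 88.2 to 98.0 CPM in the other 4. GPX7 was at 17.7 CPM in MET replicate 6, against 12.5 to 13.1 CPM in the other MET samples.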

How the results depend on the processing

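The 2 members called over the 12 libraries (CAT and GPX1) became 1 (CAT) with the length trend removed, and 0 over the 10 samples, over the 10 samples with the length trend removed, and with the replicate block. Leaving out 1 library gave 1 to 2. Over all genes, 583 calls became 107 with scaling by library size only, 238 with no filter on low counts, 1314 with DESeq2, 914 with edgeR's likelihood-ratio test, 253 with the length trend removed, 6 with the replicate block, and 0 over the 10 samples with or without the length trend removed. Leaving out 1 library gave 26 to 565 (26 without CON replicate 1 and 35 without CON replicate 4), and the cause was not tested. DESeq2 on the 10 samples, added after seeing the data, gave 639.

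The direction of CAT, GPX1, GPX3, GPX4, GPX7, SOD1 and SOD3 was kept in all 26 alternatives. GPX8 turned to −0.17 with limma voom, −0.12 with the length trend removed, −0.0017 over the 10 samples with the length trend removed and −0.12 with the replicate block, and ranged from −0.30 to 0.19 with 1 library left out. SOD2 turned to 0.0098 with scaling by library size only and ranged from −0.23 to 0.092 with 1 library left out. The replicate numbers did not pair the libraries: the deviations of same-numbered libraries correlated at −0.19 to 0.15, and 0 of 12 libraries correlated best with its own number. With the replicate block, FDR was 0.143 for CAT and 0.169 for GPX1. Depth limits GPX2, GPX8 and SOD2 most, with at most 7, 148 and 144 reads per library.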

Other observations

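Few markers of the remaining liver cell types passed the cutoff. Of 8 stellate cell and fibroblast markers, 7 had a negative log2 fold change and 1, the matrix proteoglycan LUM, was lower at FDR ≤ 0.10. LUM was at 12.7 ± 3.08 CPM in CON and 7.84 ± 2.89 CPM in MET (SD, n = 5 samples each), and edgeR's quasi-likelihood test gave FDR = 0.0985 over the 12 libraries and 0.211 over the 10 samples. The 8 markers summed to 618 to 917 CPM in CON and 471 to 777 CPM in MET. Of the 5 tested cholangiocyte markers, CFTR, the chloride channel of bile duct cells, was lower (8.32 to 14.6 CPM in CON and 6.17 to 8.77 CPM in MET, FDR = 0.0889 over the 12 libraries and 0.195 over the 10 samples). LUM kept its call in 2 and CFTR in 3 of 12 fits with 1 library left out, and both lost it with the length trend removed, scaling by library size only, no filter, a CPM filter and DESeq2 on the 10 samples. None of the 7 endothelial and 5 tested lymphocyte markers passed, with medians of 0.07 and 0.32 and summed levels that overlapped between the diets.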
